A study of Microtus ochrogaster with 25 samples.

Results

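The messenger RNAs of 4 mitochondrial genes were followed through the nucleus accumbens of prairie voles (Microtus ochrogaster): COX1, COX2 and COX3, which encode the catalytic core of cytochrome c oxidase, and CYTB, which encodes cytochrome b. They were selected by identifier, not by any measured value, though with earlier results of these data known. They make up 4 of the 19648 genes of the deposited table: ENSMOCG00000000016 (COX1), ENSMOCG00000000019 (COX2), ENSMOCG00000000023 (COX3) and ENSMOCG00000000035 (CYTB). The study sequenced messenger RNA from bulk nucleus accumbens, a part of the ventral striatum, in 25 libraries from animals of 2 early-life environments, named MAN0 and MAN1 in the labels. There were 14 MAN0 libraries (7 from each sex) and 11 MAN1 libraries (6 from females, 5 from males), with no other agent, allele or strain named for any group, and with age and litter not given in the sources used here. As background, published vole work uses these names for the way a family was moved soon after birth, MAN0 without touching the parents and MAN1 with the parents picked up by hand, which changes parental care. The title of the series speaks of parental care and of an effect in males, so the MAN1 to MAN0 difference was estimated for either sex, and the male estimate was set against the female one. The sample-sheet index in the titles counts up to library 16 and restarts at library 17. The libraries before the restart are called run 1 here (16 libraries, 4 of each group) and those after it run 2 (6 MAN0 libraries, 3 from each sex, with 2 MAN1 libraries from females and 1 from a male).

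The respiratory chain passes electrons along protein complexes of the inner mitochondrial membrane and pumps protons as it does so. Cytochrome b is the membrane-spanning, heme-carrying core of complex III, which takes electrons from ubiquinol and hands them to cytochrome c. Complex IV, cytochrome c oxidase, passes them on to oxygen: COX2 carries the copper center that receives electrons from cytochrome c, COX1 carries the hemes and copper at which oxygen is reduced, and COX3 is the remaining mitochondrially encoded core subunit. The other subunits of both complexes are encoded in the nucleus. COX1, COX2, COX3 and CYTB are transcribed from the same strand of the circular mitochondrial DNA and cut out of long shared precursor transcripts, after which each messenger RNA is stabilised and degraded on its own. Neurons of the striatum depend on this pathway for most of their ATP, and cytochrome oxidase has long been used as a histological marker of neuronal activity.

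The deposited table gives identifiers and no gene names, so the names rest on the order of the identifiers. Mitochondrial genomes of vertebrates hold 37 genes in an order that mammals share, of which 13 encode proteins. Among the identifiers numbered 1 to 37, the table holds 13, and 13 of these 13 stand at protein positions of that order, while 0 of the 24 positions of ribosomal and transfer RNAs are present. By share of counts, the 4 genes ranked 1 (COX1), 2 (COX3), 6 (CYTB) and 8 (COX2) among all genes. A share of counts grows with transcript length as well as with the number of molecules. No transcript lengths or sequences were at hand, so levels are compared between libraries and not between genes, and ratios between genes are counts against counts rather than molecules against molecules. Levels of nuclear subunits and of markers of the labelled tissue were not analysed here, for lack of gene names.

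Each of the 4 genes was counted deeply in every library. Library totals lay between 19882129 and 32569988 counts, and a gene received between 99326 counts (COX2 in MAN1 male 5) and 1006798 counts (COX1 in MAN0 male 2). The widest 95% Wilson interval of any share reached 0.00835 percentage points to either side, which covers counting error only. Whether each library stands for its own animal or litter is not stated in the labels, so the tests weigh differences against library-to-library spread, which may be technical. In bulk tissue, fewer cells of a type and less RNA per cell cannot be told apart.

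COX1 alone took 2.37% ± 0.562 of all counts (mean ± SD, n = 25), from 1.77% in MAN1 female 6 to 4.37% in MAN0 male 2. COX3 took 1.22% ± 0.292, from 0.891% in MAN1 female 1 to 2.21% in MAN0 male 2. CYTB took 0.897% ± 0.201, from 0.603% in MAN1 female 6 to 1.51% in MAN0 male 2. The same library, MAN0 male 2, was thus highest for these 3 genes. COX2 took 0.634% ± 0.15, from 0.468% in MAN1 male 5 to 1.14%, again in MAN0 male 2. Together the 4 genes made up 3.8% to 9.23% of a library, a 2.43-fold range. In the 24 libraries other than MAN0 male 2, COX1 ran from 1.77% to 3.25%, the highest being MAN0 female 3.

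By group, the mean COX1 share was 2.60% ± 0.797 in MAN0 males (n = 7), 2.48% ± 0.515 in MAN0 females (n = 7), 2.23% ± 0.448 in MAN1 females (n = 6) and 2.06% ± 0.158 in MAN1 males (n = 5). The means of COX2, COX3 and CYTB followed the same order. For each gene, neighbours in this order differed by less than the larger of their SDs. The medians kept this order for COX1. For COX2 the median of MAN0 females (0.664%) stood above that of MAN0 males (0.622%), as it did for COX3 (1.26% and 1.20%) and CYTB (0.928% and 0.906%). For CYTB the median of MAN1 males (0.814%) also stood above that of MAN1 females (0.789%). The males differed in spread as well: the coefficient of variation of COX1 was 30.6% in MAN0 males, 7.73% in the 6 of them other than MAN0 male 2, and 7.65% in MAN1 males. In females it was 20.7% in MAN0 and 20.1% in MAN1.

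**Figure D1:**
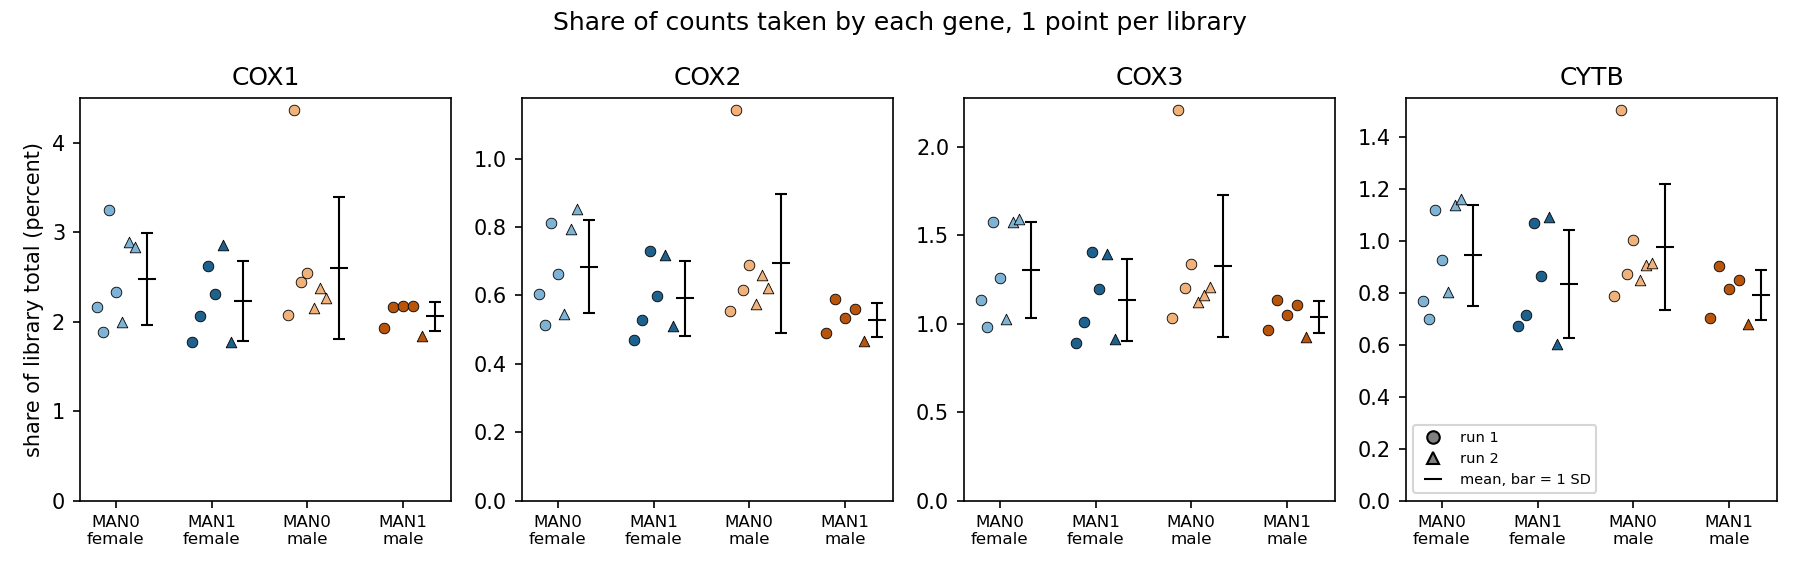
Share of the library total (percent, axis from 0) taken by COX1, COX2, COX3 and CYTB in each library, by group; circles are run 1, triangles run 2, and the bar beside each group shows the mean and 1 SD. MAN0 male 2 stands alone at the top of every panel (4.37% for COX1), and the 5 MAN1 males lie close together between 1.85% and 2.18% for COX1.

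The 4 transcripts varied together from library to library. Relations were taken between log2 levels (TMM-scaled CPM) over 25 libraries, with group and run means removed. The closest pair by r was COX2 and COX3, with Pearson r = 0.992 and Spearman rho = 0.972. The loosest pair by both measures was COX1 and CYTB, with r = 0.963 and rho = 0.943. The other pairs had r of 0.98 (COX1 and COX2), 0.986 (COX1 and COX3), 0.967 (COX2 and CYTB) and 0.978 (COX3 and CYTB). Their rho, in the same order, was 0.952, 0.962, 0.945 and 0.977. That of COX3 and CYTB, which belong to different complexes, was the highest rho of the 6 pairs. Permutation p was 1e-05 for each r and rho, the smallest value within reach of 100000 resamples. It was also 1e-05 when adjusted (Benjamini-Hochberg) over the 6 pairs and both measures. Levels within a library share its depth and its composition, which ties them to each other. The relation held in run 1 (r from 0.966 to 0.997) and in run 2 (r from 0.927 to 0.988). Without the 2 libraries farthest from the median of the first gene, of which MAN0 male 2 was one for every pair, r lay between 0.941 and 0.984. It was also unchanged in direction when totals and scaling were computed without the 13 mitochondrial genes (r from 0.964 to 0.992).

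**Figure D2:**
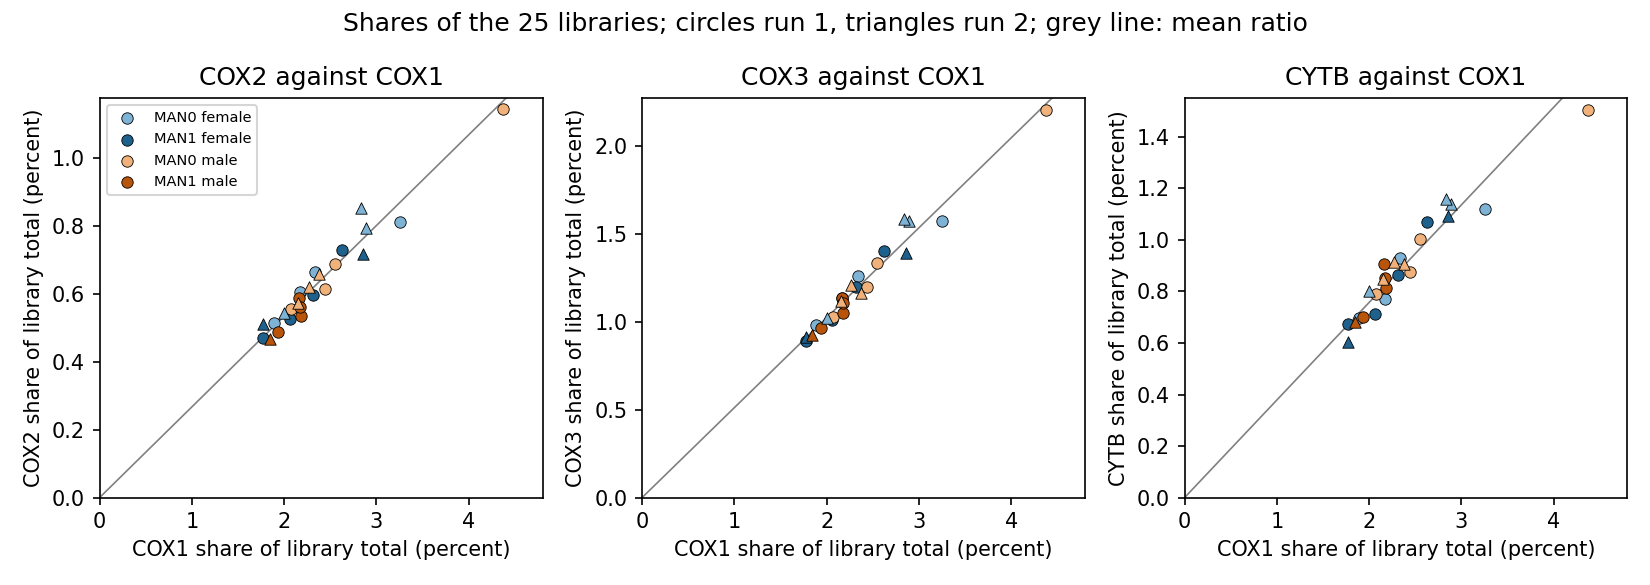
Share of the library total (percent) of COX2, COX3 and CYTB against that of COX1, 1 point per library, colored by group, with circles for run 1 and triangles for run 2; the grey line is the mean ratio over the 25 libraries. Points follow the line from 1.77% to 4.37% of COX1, and MAN0 male 2 at the upper right lies below the line for CYTB.

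The proportions among the 4 genes were far steadier than their levels. Levels had a residual SD between 0.29 and 0.307 on the log2 scale (group and run means removed), whereas ratios had a residual SD between 0.0435 (COX3 to COX2) and 0.0894 (CYTB to COX1). Within complex IV, there were 0.267 ± 0.0136 COX2 counts per COX1 count (SD, n = 25), with a range of 0.246 to 0.301, and 0.512 ± 0.0205 COX3 counts per COX1 count, with a range of 0.481 to 0.561. COX3 to COX2 stood at 1.92 ± 0.0577, from 1.76 in MAN0 male 6 to 2.004 in MAN1 female 4. The highest COX2 to COX1 and COX3 to COX1 ratios both belonged to MAN0 female 7. Across complexes, CYTB stood at 0.379 ± 0.0225 counts per COX1 count, from 0.340 in MAN1 female 6 to 0.418 in MAN1 male 2. CYTB to COX2 was 1.42 ± 0.0827, and CYTB to COX3 was 0.74 ± 0.0356. MAN1 female 6 had the lowest value of each of the 3 CYTB ratios, with 1.18 for CYTB to COX2 where the next library, MAN0 female 1, had 1.27. Of all counts on the 13 mitochondrial protein genes, the 4 genes held 50.5% ± 1.01, from 48.6% to 53.0%.

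None of the 6 ratios passed at an adjusted p under 0.05 between MAN1 and MAN0, between the sexes in that difference, or between runs. Each was tested on the log2 scale by 2-sided exact permutation of labels within run and sex (or of runs within group), and p-values were adjusted over all 30 tests by Benjamini-Hochberg. The smallest p in males was for CYTB to COX2. Its 5 values in MAN1 males were 1.43, 1.54, 1.52, 1.51 and 1.46, and in the 7 MAN0 males it ran from 1.32 (lowest) over 1.42 (median) to 1.48 (highest). Of the 5 MAN1 males, 3 lay above every MAN0 male, and the groups overlapped in the rest. The log2 difference was 0.074, a ratio 1.05-fold higher in MAN1 (exact permutation p = 0.0607, adjusted p = 0.67). In females the same ratio differed by 0.017 (exact permutation p = 0.801, adjusted p = 0.925), with MAN1 females from 1.18 to 1.52 and MAN0 females from 1.27 to 1.47. The male minus female difference was 0.057 (exact permutation p = 0.436, adjusted p = 0.67).

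The COX2 to COX1 ratio had a lower mean in MAN1 than in MAN0 in both sexes and did not pass. In MAN1 males it was 0.253, 0.272, 0.246, 0.259 and 0.253, against 0.252 (lowest), 0.268 (median) and 0.278 (highest) in MAN0 males. In MAN1 females it ran from 0.251 over a median of 0.262 to 0.288, and in MAN0 females from 0.250 over 0.275 to 0.301. The groups overlapped in both sexes. The log2 difference was -0.051 in males (exact permutation p = 0.125), -0.051 in females (exact permutation p = 0.279) and -0.051 over both (exact permutation p = 0.0662), with an adjusted p of 0.67 for each. With 1 library left out, the male estimate ranged from -0.073 (without MAN1 male 2) to -0.031 (without MAN1 male 5). Without MAN1 male 5 no MAN1 male is left in run 2, so that estimate came from the run 1 males alone. The female estimate ranged from -0.075 (without MAN0 female 3) to -0.020 (without MAN1 female 5). The largest run difference was that of CYTB to COX1, 0.375 ± 0.0227 in run 1 (n = 16) and 0.386 ± 0.0214 in run 2 (n = 9), a log2 difference of 0.046 with groups held apart (exact permutation p = 0.237, adjusted p = 0.67).

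**Figure D3:**
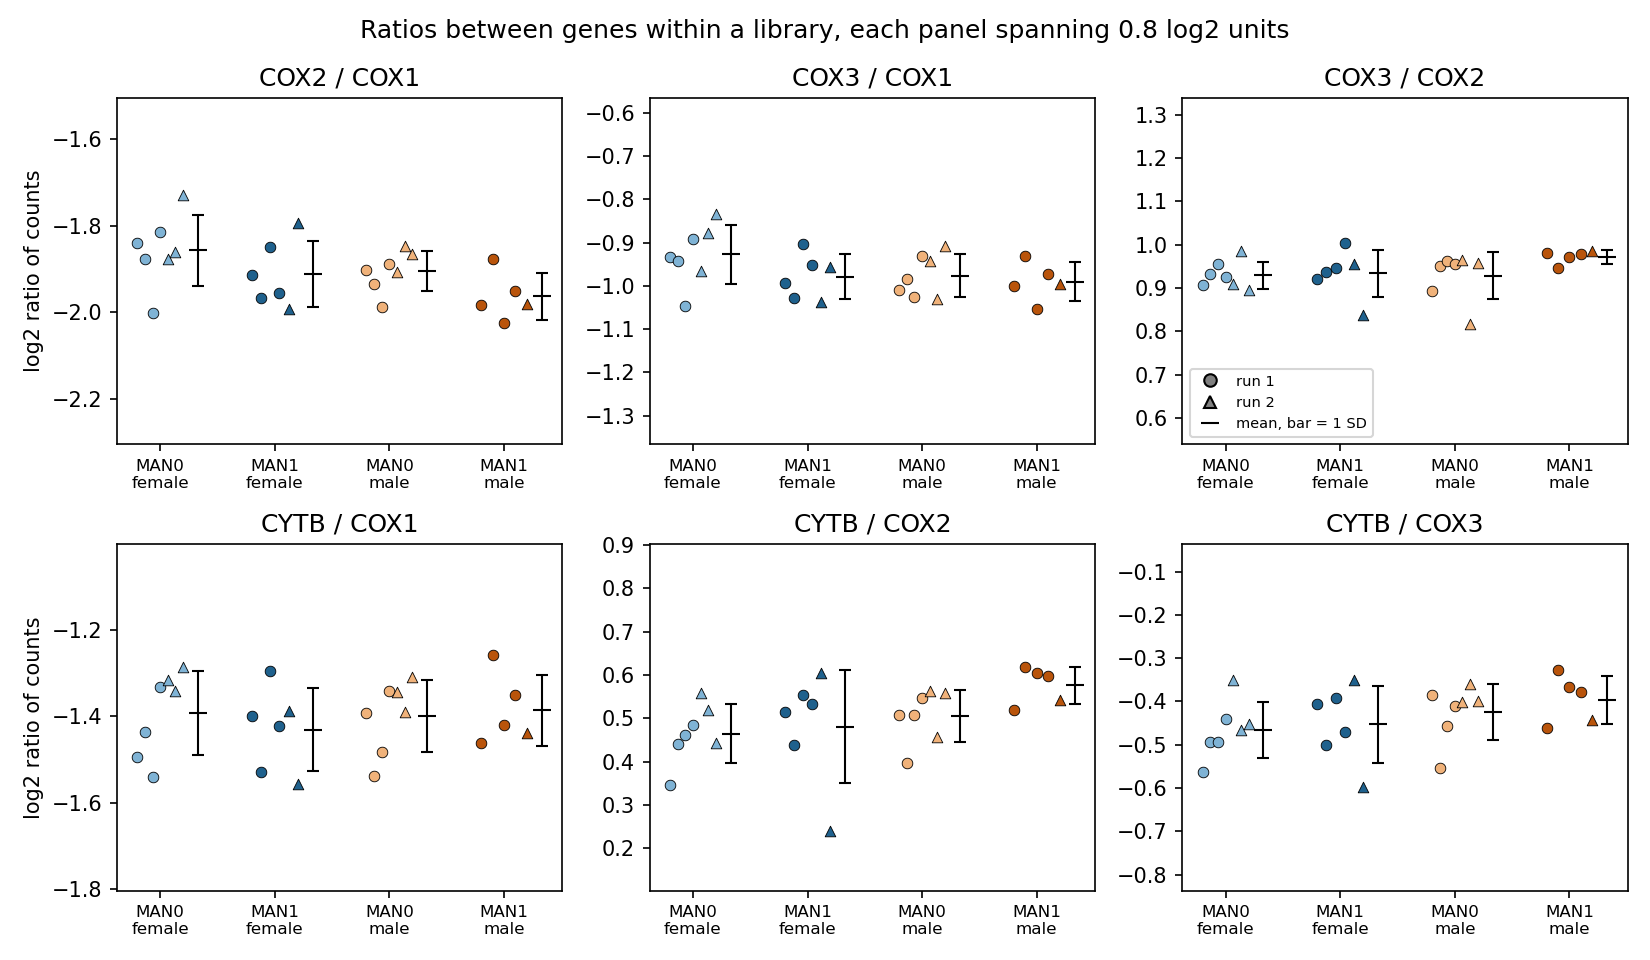
Log2 ratios of counts between genes of the same library, by group; every panel spans the same 0.8 log2 units, circles are run 1, triangles run 2, and bars show the mean and 1 SD. Groups overlap in all 6 panels; for CYTB to COX2 the MAN1 males lie at 0.52 to 0.62 and MAN1 female 6 is lowest at 0.24.

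In males, all 4 genes had lower means in MAN1 than in MAN0, and none passed the test. The fold differences estimated by edgeR, on TMM-scaled levels with run in the model, were 1.29-fold to 1.38-fold. COX1, at the oxygen-reducing site, took 1.94%, 2.17%, 2.18%, 2.17% and 1.85% of counts in the 5 MAN1 males, and 2.07% (lowest), 2.38% (median) and 4.37% (highest) in the 7 MAN0 males. COX2, the subunit that receives electrons from cytochrome c, took 0.490%, 0.590%, 0.535%, 0.562% and 0.468% in MAN1 males, against 0.555%, 0.622% and 1.14% in MAN0 males. For both genes all 5 MAN1 males lay below the MAN0 median and 5 of the 7 MAN0 males lay above every MAN1 male, so the groups overlapped at their edges. COX3 took 0.967%, 1.14%, 1.05%, 1.11% and 0.926% in MAN1 males, against 1.03%, 1.20% and 2.21% in MAN0 males. CYTB took 0.702%, 0.905%, 0.814%, 0.851% and 0.681% in MAN1 males, against 0.789%, 0.906% and 1.51% in MAN0 males. Here too every MAN1 male was below the MAN0 median, with 5 (COX3) and 4 (CYTB) of 7 MAN0 males above every MAN1 male.

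The log2 fold change on TMM-scaled levels in males was -0.42 for COX1 (SE 0.19, 95% interval -0.81 to -0.020), -0.46 for COX2 (SE 0.19, -0.85 to -0.072), -0.43 for COX3 (SE 0.19, -0.83 to -0.025) and -0.37 for CYTB (SE 0.19, -0.77 to 0.025). By edgeR's quasi-likelihood test 0 of 4 passed at a Benjamini-Hochberg adjusted p under 0.05 (adjusted p = 0.599 for each), beside 0 of 14843 genes tested (percentage called 0); DESeq2 and limma-voom likewise passed 0 of 4. Without adjustment, p was 0.0404 for COX1, 0.0223 for COX2, 0.0385 for COX3 and 0.0653 for CYTB (edgeR). An unadjusted p under 0.05 with a lower value in MAN1 was held by 4.95% of all genes tested (2.38% with a higher value), and since the 4 genes varied together, the 3 of them that had one are close to a single measurement. Their median log2 fold change was -0.42, beside 0.0072 over all genes. The total share of the 13 mitochondrial genes, which contains the 4 genes themselves and is no separate evidence, was 8.81% ± 0.89 in MAN1 males and 11.1% ± 3.04 in MAN0 males. MAN0 male 2 alone had 17.8%. With totals and TMM scaling computed without the 13 genes the estimates were -0.48 for COX2 and -0.39 for CYTB. With library totals only and no TMM scaling they were smaller, -0.40 for COX2 and -0.31 for CYTB. The difference had the same sign within run 1 (COX1 -0.52, COX2 -0.55, COX3 -0.52, CYTB -0.43) and within run 2 (-0.34, -0.45, -0.38 and -0.43), where a single MAN1 male stands against 3 MAN0 males.

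MAN0 male 2 set much of the size of the male difference. Without it the log2 fold change was -0.17 for COX1 (SE 0.14), -0.22 for COX2 (SE 0.14), -0.18 for COX3 (SE 0.14) and -0.16 for CYTB (SE 0.16), with unadjusted p from 0.131 to 0.33 (edgeR, Benjamini-Hochberg adjusted p = 0.923 for each). The mean COX1 share of the remaining 6 MAN0 males was 2.31% ± 0.179, against 2.06% ± 0.158 in MAN1 males.

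**Figure D4:**
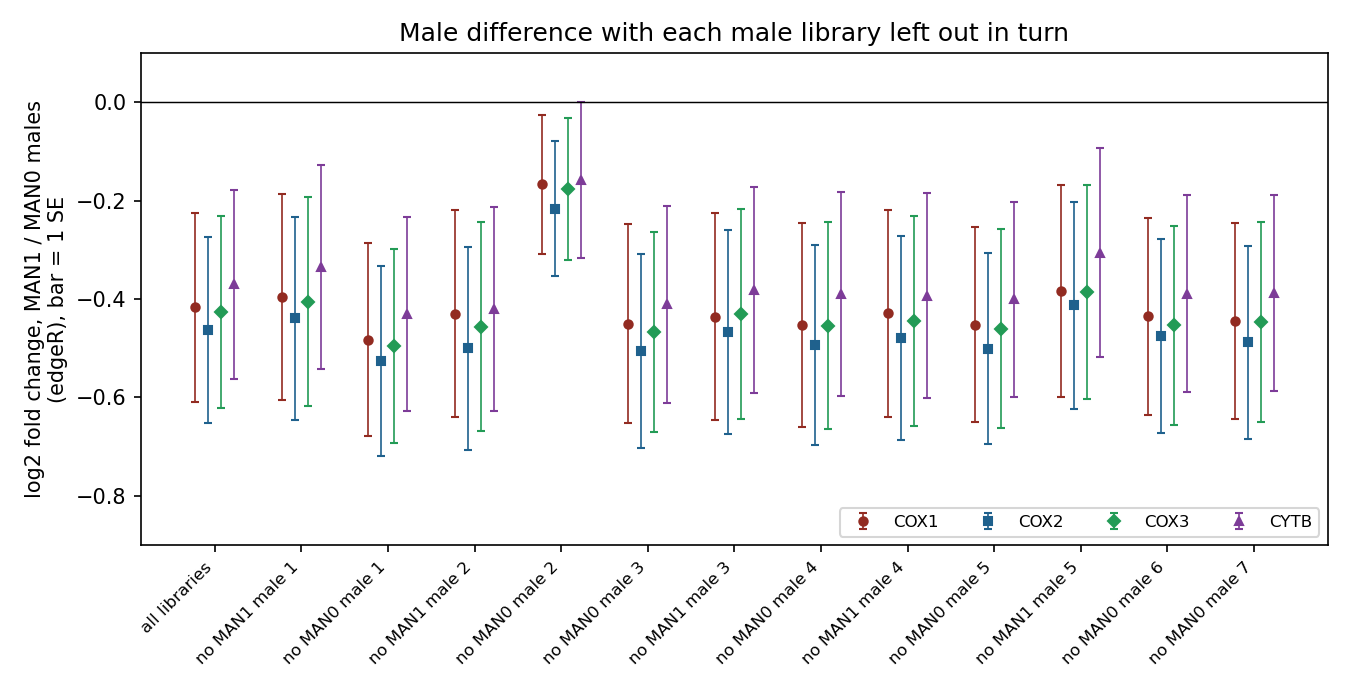
Log2 fold change of MAN1 against MAN0 in males (edgeR, bars 1 SE) for COX1, COX2, COX3 and CYTB with all libraries and with each male library left out in turn. Estimates without MAN0 male 2 lie between -0.22 and -0.16; in all other columns they lie between -0.53 and -0.31.

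In females, the 4 genes also had lower means in MAN1, and none passed the test. The fold differences estimated by edgeR, with run in the model, were 1.13-fold to 1.18-fold. COX1 took 1.77% (lowest), 2.19% (median) and 2.86% (highest) in the 6 MAN1 females and 1.89%, 2.34% and 3.25% in the 7 MAN0 females. COX2 took 0.470%, 0.562% and 0.729% in MAN1 females and 0.514%, 0.664% and 0.854% in MAN0 females. COX3 took 0.891%, 1.10% and 1.41% against 0.982%, 1.26% and 1.59%, and CYTB 0.603%, 0.789% and 1.09% against 0.698%, 0.928% and 1.16%. The ranges overlapped over most of their width, and 4 of the 6 MAN1 females lay below the MAN0 median for each gene. MAN1 females 3 and 5 stood at the upper end of their group for all 4 genes. The log2 fold change was -0.18 for COX1 (SE 0.18, 95% interval -0.55 to 0.19), -0.24 for COX2 (SE 0.18, -0.60 to 0.13), -0.23 for COX3 (SE 0.18, -0.61 to 0.14) and -0.20 for CYTB (SE 0.18, -0.58 to 0.17). By edgeR 0 of 4 passed (Benjamini-Hochberg adjusted p = 0.988 for each), beside 0 of 14843 genes (percentage called 0), and unadjusted p lay between 0.195 and 0.322, so 0 of 4 were under 0.05 and lower, against 1.4% of all genes (1.06% higher). The median of the 4 log2 fold changes was -0.22, beside 0.0035 over all genes. Within run 1 the estimates were -0.15 (COX1), -0.17 (COX2), -0.15 (COX3) and -0.092 (CYTB), and within run 2 they were -0.18, -0.28, -0.31 and -0.32, from 2 MAN1 and 3 MAN0 females. Without MAN1 female 5 the estimate for COX1 was -0.30, and without MAN0 female 3 it was -0.11. For CYTB it was -0.33 without MAN1 female 5 and -0.12 without MAN1 female 6.

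Whether the MAN1 difference was larger in males than in females was asked directly, and each of the 4 estimates was smaller than its SE. The male minus female log2 difference was -0.23 for COX1 (SE 0.26, 95% interval -0.77 to 0.30), -0.23 for COX2 (SE 0.26, -0.76 to 0.30), -0.19 for COX3 (SE 0.26, -0.74 to 0.35) and -0.17 for CYTB (SE 0.26, -0.70 to 0.37). By edgeR 0 of 4 passed (Benjamini-Hochberg adjusted p = 1 for each, unadjusted p from 0.377 to 0.529), beside 0 of 14843 genes (percentage called 0). An unadjusted p under 0.05 was held by 0 of the 4, against 0.492% of all genes with a lower and 0.175% with a higher value. Without MAN0 male 2 the estimates changed sign, to 0.0067 for COX1, 0.010 for COX2, 0.046 for COX3 and 0.036 for CYTB. The intervals leave room for a male effect larger or smaller than the female one.

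Averaged over both sexes, MAN1 libraries had log2 fold changes of -0.30 for COX1 (SE 0.13, 95% interval -0.57 to -0.026), -0.35 for COX2 (SE 0.13, -0.62 to -0.080), -0.33 for COX3 (SE 0.13, -0.61 to -0.053) and -0.29 for CYTB (SE 0.13, -0.56 to -0.014). By edgeR 0 of 4 passed (Benjamini-Hochberg adjusted p = 0.413 for the 3 cytochrome oxidase genes and 0.417 for CYTB), beside 0 of 14843 genes (percentage called 0). Unadjusted p (edgeR) was 0.0331, 0.0131, 0.0217 and 0.0401 in the same order, so that 4 of 4 were under 0.05 and lower, against 6.9% of all genes (5.07% higher). Since the 4 genes varied together, they are close to a single measurement. Of the 9 other mitochondrial protein genes, 6 were also lower with an unadjusted p under 0.05 (edgeR). With the replicate number as a block in place of run, 1 of 4 (COX2) was under 0.05. Without MAN0 male 2 the averaged values were -0.17, -0.22, -0.20 and -0.18, with unadjusted p of 0.0879, 0.027, 0.0547 and 0.117 (edgeR, Benjamini-Hochberg adjusted p = 0.634 for each).

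With MAN0 and MAN1 averaged, none of the 4 genes passed the test between the sexes. The log2 difference of males against females was -0.028 for COX1 (SE 0.13), -0.072 for COX2 (SE 0.13), -0.058 for COX3 (SE 0.13) and -0.016 for CYTB (SE 0.13). By edgeR 0 of 4 passed (Benjamini-Hochberg adjusted p from 0.982 to 0.996), beside 0.0135% of all genes. Unadjusted, 0 of 4 had p under 0.05, against 1.56% of all genes lower and 0.862% higher in males. Without MAN0 male 2 the estimates were -0.14 (COX1), -0.18 (COX2), -0.16 (COX3) and -0.11 (CYTB), with unadjusted p from 0.0651 to 0.321 (edgeR, Benjamini-Hochberg adjusted p from 0.723 to 0.784). The estimate had opposite signs in the runs: COX1 was higher in males by 0.13 in run 1 and had a log2 difference of -0.30 in run 2, and neither passed (edgeR, Benjamini-Hochberg adjusted p = 1 and 0.967). The other 3 genes did likewise. In run 1, the mean COX1 share was 2.86% ± 1.03 in MAN0 males, MAN0 male 2 among them, and 2.41% ± 0.591 in MAN0 females (n = 4 each). In run 2 it was 2.27% ± 0.111 and 2.58% ± 0.498 (n = 3 each).

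Runs did not differ in level by more than their spread. COX1 took 2.39% ± 0.633 in run 1 (n = 16) and 2.33% ± 0.438 in run 2 (n = 9), COX2 0.631% ± 0.164 and 0.639% ± 0.131, COX3 1.22% ± 0.318 and 1.21% ± 0.256, and CYTB 0.892% ± 0.21 and 0.906% ± 0.197. With group held apart, the log2 difference of run 2 against run 1 was -0.11 for COX1, -0.068 for COX2, -0.087 for COX3 and -0.051 for CYTB (SE 0.14 each). By edgeR 0 of 4 passed (Benjamini-Hochberg adjusted p = 0.999 for each), beside 0 of 14843 genes (percentage called 0). Unadjusted, 0 of 4 had p under 0.05, against 1.94% of all genes lower and 1.92% higher in run 2. Without MAN0 male 2 these estimates turned positive, between 0.010 and 0.052.

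The other 9 protein genes of the mitochondrial genome encode 7 subunits of complex I (ND1 to ND6 and ND4L), the NADH-oxidising entry of the chain, and ATP6 and ATP8 of the ATP synthase. Their estimates lay on the same side as those of the cytochrome genes: in males 9 of 9 had a negative log2 fold change, from -0.62 (ND6, SE 0.22) to -0.31 (ND4L, SE 0.18), with a median of -0.38. In females 9 of 9 were negative, from -0.28 (ND1) to -0.10 (ND4L), with a median of -0.21. By edgeR 0 of 9 passed in either sex (Benjamini-Hochberg adjusted p = 0.599 in males and 0.988 in females). The cytochrome genes, at -0.37 to -0.46 in males and -0.18 to -0.24 in females, lay within the range of these 9 in both sexes.

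**Figure D5:**
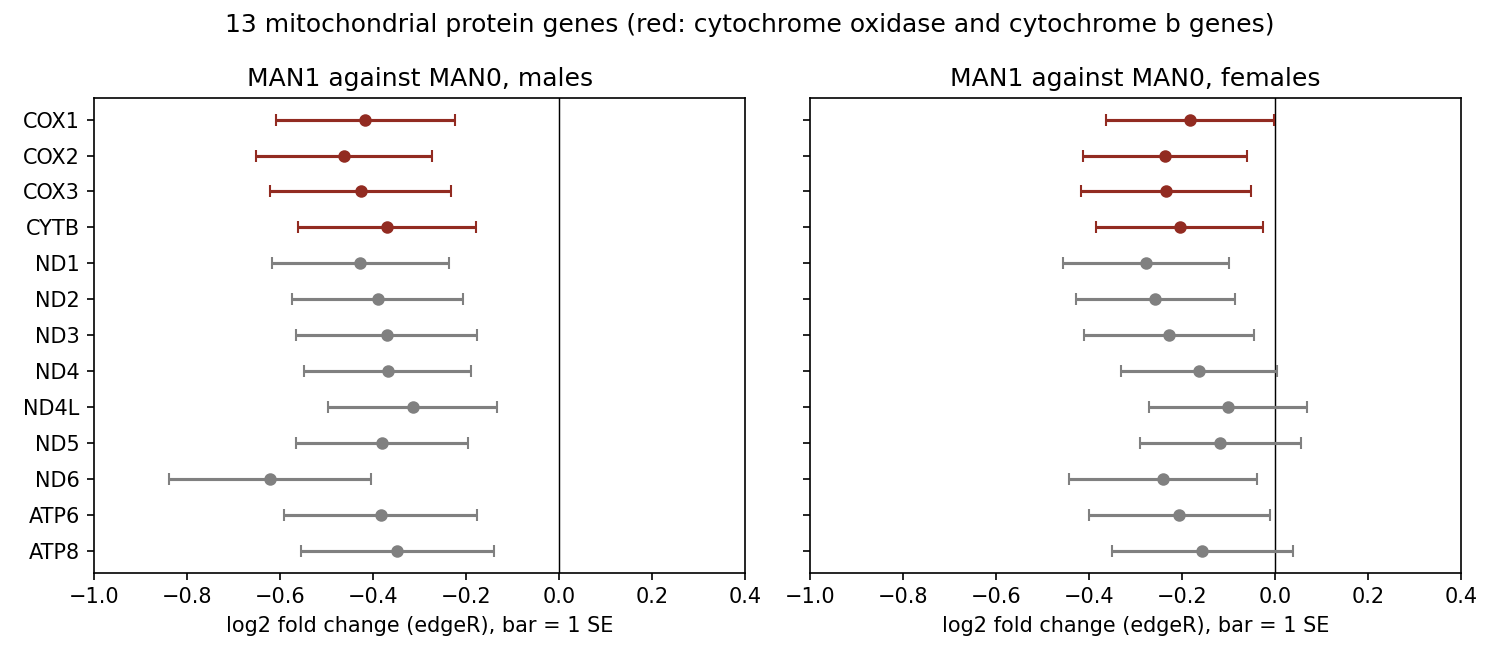
Log2 fold change of MAN1 against MAN0 (edgeR, points with bars of 1 SE) in males and in females for the 13 mitochondrial protein genes, with the cytochrome oxidase and cytochrome b genes in red. All 13 points are below 0 in both panels, from -0.62 to -0.31 in males and from -0.28 to -0.10 in females.

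Each cytochrome gene was compared with 12672 other genes of mean log2 CPM above 1. The measure was Pearson r of log2 CPM over 25 libraries with group and run means removed, given as a description. The most alike gene was ATP6 for COX1 (r = 0.989), COX3 for COX2 (r = 0.992), COX2 for COX3 (r = 0.992) and ND1 for CYTB (r = 0.984). Of the 12 most alike genes, 8 were mitochondrial for COX1, 4 for COX2, 6 for COX3 and 7 for CYTB. The other 3 cytochrome genes stood within the first 5 places for COX1, the first 6 for COX2, the first 4 for COX3 and the first 7 for CYTB. The least alike mitochondrial gene ranked far lower, ND5 at place 322 for COX1 and ND4L at places 708, 542 and 453 for COX2, COX3 and CYTB. MAN0 female 7 had TMM-scaled CPM of 29297 for COX1, 3088 for ND5 and 1101 for ND4L. In MAN0 female 6, with a similar COX1 level (29345), ND5 and ND4L stood at 4938 and 1699. The ranks were not computed without MAN0 female 7. Outside the mitochondrial genes, ENSMOCG00000022690 was most like COX1 (r = 0.96) and COX3 (r = 0.976). On the opposite side, ENSMOCG00000005881 had the lowest r with COX3 (-0.935) and CYTB (-0.961). The table gives no names for these genes.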

How the data were processed

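The labels give, for each of the 25 libraries, tissue, treatment and sex; per the labels' protocols, RNA came from a kit that isolates DNA and RNA together, messenger RNA was captured on beads, and the library kit marks strand. The authors deposited estimated counts per gene, not scaled for depth. Per the submitters' processing notes, Trim Galore, MultiQC and kallisto were used; for versions, genome build, annotation and strand setting the entry is: not given in the sources used here. Of a library's values, 9.11% to 10.1% had a fractional part as written in the table, with no tolerance; of the 4 genes 0 values had one. Whether nuclear copies of mitochondrial sequence share reads with them was not tested. Columns were matched to samples by the library name in the titles.

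Counts were rounded and tested on the whole table with edgeR 4.0.16 (R 4.3.3): filterByExpr with a minimum count of 10 kept 14843 genes, TMM scaling, group means plus run, 20 residual degrees of freedom, quasi-likelihood test, Benjamini-Hochberg over all genes. SE came from the F statistic. The edgeR and permutation procedures were tested on simulated data with known changes. The named genes are the 4 genes, the other 9 mitochondrial protein genes, and the genes highest and lowest in likeness. Here 2 of those outside the mitochondrion are named, each the extreme for 2 of the 4. The members and lists were chosen with earlier results of these data known. Lists of nuclear respiratory genes and cell type markers by symbol could not be used, since 0 of 26397 reference genes (RefSeq, assembly MicOch1.0) matched an identifier. Alternatives covered scaling, DESeq2 1.42.0, limma-voom (limma 3.58.1), filter, run, single sexes, a replicate block and left-out libraries. No library was a copy of another of its group: over 67 pairs the lowest chi-square, divided by its degrees of freedom, was 10.7.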

Additional observations from a re-analysis of the deposited data

Results flagged for a closer look

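MAN0 male 2 stood apart from the 6 other MAN0 males for each of the 4 genes. Its share of the library total was 4.374% for COX1, where the next MAN0 male had 2.546%. It was 1.144% for COX2 (next 0.6881%), 2.21% for COX3 (next 1.335%) and 1.506% for CYTB (next 1.005%). The gap to the next library made up 0.794, 0.774, 0.742 and 0.699 of the group's range, above Dixon's 95% critical value of 0.568 for 7 samples. Chance alone flags about 1 group in 20, and 40 sets of values (4 levels and 6 ratios in 4 groups) were examined. The 4 flags concern a single library and genes that vary together. None of the 24 sets of ratios was flagged, and the ratios of MAN0 male 2 lay inside the range of the 25 libraries. The total share of the 13 mitochondrial genes in this library was 17.8%, against 8.88% to 11.1% in the other MAN0 males.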

How the results depend on the processing

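For males, females and both sexes together, the MAN1 against MAN0 log2 fold changes of the 4 genes were negative and did not pass in each of 440 alternative values, with a lowest adjusted p of 0.283. These values are refits of the same libraries for genes that vary together, so they are not independent of each other. For the interaction, sex and run estimates 389 of 416 alternative values kept their sign, and 27 reversed. For the ratios 817 of 864 kept it and 47 reversed, with a lowest adjusted p of 0.0853. All 24 alternative correlations stayed on their side. The cause of the changes below was not tested.

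The number of genes passing was 1 in males, 1 in females and 3 over both sexes with run 2 alone, against 0 for each with all libraries. DESeq2 passed 9 genes over both sexes and 7 between runs, against 0 and 0 by edgeR. Between the sexes 2 genes passed, against 0 with library totals only, 1 with run 1 alone, 0 with run 2 alone and 1 with the replicate block. With 1 library left out, 0 to 1 passed over both sexes, 1 to 3 between the sexes and 0 to 1 between runs.

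With run 1 alone the sex difference was 0.13 for COX1, 0.093 for COX2, 0.11 for COX3 and 0.15 for CYTB. Without MAN0 male 2 and MAN0 female 7 the run difference was 0.00050 for COX2 and 0.0080 for CYTB. With 1 library left out, the interaction ranged from -0.30 to 0.0067 for COX1, from -0.32 to 0.010 for COX2, from -0.27 to 0.046 for COX3 and from -0.25 to 0.036 for CYTB. The sex difference ranged from -0.14 to 0.017 for COX1 and from -0.11 to 0.029 for CYTB. The run difference ranged from -0.19 to 0.010 for COX1, from -0.12 to 0.049 for COX2, from -0.15 to 0.032 for COX3 and from -0.13 to 0.051 for CYTB.

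Among log2 ratios, run 1 alone gave 0.0076 for the COX2 to COX1 interaction and, for CYTB to COX1, 0.040 in females and 0.052 over both sexes. Without MAN0 male 2 and MAN0 female 7, CYTB to COX1 was -0.0052 in males, COX3 to COX2 was -0.0018 in females and the CYTB to COX3 interaction was -0.0084. With 1 library left out, COX2 to COX1 ranged from -0.031 to 0.024 (interaction) and COX3 to COX1 from -0.026 to 0.0028 (males). CYTB to COX1 ranged from -0.0088 to 0.065 in males, from -0.064 to 0.0090 in females and from -0.021 to 0.016 over both. COX3 to COX2 in females ranged from -0.010 to 0.023. CYTB to COX2 ranged from -0.017 to 0.083 in females, from -0.0091 to 0.091 for the interaction and from -0.012 to 0.046 between runs. CYTB to COX3 ranged from -0.0076 to 0.060 in females and from -0.026 to 0.052 for the interaction.

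Groups share replicate numbers, and the correlation of same-numbered libraries' deviations had a median r of 0.0537 over 34 pairs, of which 13 were above 0.1, against -0.0694 over 91 other pairs of the same run, of which 23 were. The labels do not say what a replicate number marks, and these correlations cannot tell whether the numbers pair the libraries. Pairing thus remains unresolved, and the main fits did not pair libraries by number. With the replicate block in place of run, the log2 fold change in males was -0.37 for COX1, -0.41 for COX2, -0.37 for COX3 and -0.34 for CYTB. Unadjusted p by edgeR was 0.0718, 0.0469, 0.0744 and 0.0989 in that order (Benjamini-Hochberg adjusted p = 0.7485 for each). Only COX2 was thus under 0.05 in males, as it was by limma-voom with run (unadjusted p = 0.0352). Over both sexes the block gave -0.27, -0.31, -0.29 and -0.26 (edgeR, unadjusted p = 0.0639, 0.0344, 0.0513 and 0.0751, adjusted p = 0.635). No fit with 1 run alone was made for ratios in run 2. The effect of depth was not tested; the Wilson interval of a share reached at most 0.00835 percentage points to either side.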

Other observations

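MAN1 female 6 had the lowest CYTB counts relative to each of the cytochrome oxidase genes, with log2 ratios of -1.56 (to COX1), 0.24 (to COX2) and -0.60 (to COX3), and the second-lowest COX3 to COX2 ratio (1.79, after 1.76 in MAN0 male 6). Without this library the CYTB to COX2 ratio had a MAN1 minus MAN0 difference over both sexes of 0.079 on the log2 scale (adjusted p = 0.0853 over 30 tests by exact permutation). Without MAN1 female 5, which has the highest ratio of its group, it was 0.029 (adjusted p = 0.844 by exact permutation). With all libraries it was 0.045 (adjusted p = 0.67 by exact permutation). MAN1 female 6 was singled out after its values were seen and is the lowest in this ratio, so the value without it depends on the outcome and is no test.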
